A study of Mus musculus with 48 samples.

Results

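The 7 genes described here, Fkbp5, Zbtb16, Klf15, Klf9, Tsc22d3, Sgk1 and Ddit4, are established targets of the glucocorticoid receptor. They were taken by symbol, with every probe set that the array's annotation assigned to them: 17 probe sets of 22690 in the table, and 7 of the 12393 genes tested. The lungs came from 48 male C57BL/6 mice in 6 groups of 8, each hybridised to its own Affymetrix expression array. Regular weight (RW) animals ate a chow with about 5% of calories from fat, and diet-induced obese (DIO) animals ate a 60% fat diet from 6 weeks of age. The labels name no transgene or mutation. All animals were 13 weeks old at purchase and 15 weeks old when exposure began. Within a diet the labels set the groups apart only by what was breathed. This was filtered air (SC, the sham control), mainstream smoke (MS, drawn through the cigarette) or sidestream smoke (SS, from its burning end). Exposure was through the nose for 5 hours a day, 8 times over 2 weeks, 5 days on, 2 days off and 3 days on, with tissue taken on the day after the last session. The labels call the 8 animals of a group biological replicates; 4 source names repeat a replicate number of their group, and those arrays were taken as separate animals by their titles. The labelled diet text also mentions a 4-day LPS study, and how that bears on these animals is not stated.

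Glucocorticoids are steroid hormones released by the adrenal gland in stress and with a daily rhythm. They enter cells and bind the receptor Nr3c1, which leaves a chaperone complex, moves to the nucleus and binds paired hexamers in DNA called glucocorticoid response elements. In the lung the hormone matures the alveolar epithelium, restrains inflammation and changes the metabolism of muscle and endothelium, and several of the 7 genes are also switched by insulin, hypoxia, osmotic stress or the circadian clock. Their products fall into roles: a brake on the receptor itself (Fkbp5), transcription factors (Zbtb16, Klf15, Klf9), an inhibitor of inflammatory transcription factors (Tsc22d3), and regulators of kinase signalling and ion transport (Sgk1, Ddit4).

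Promoter sequence is given first, because the genes share the label of receptor targets. RefSeq windows on GRCm38.p6, from 250 bases before to 50 bases after an annotated start, were at hand for 6 of the 7 genes, 13 windows in all; Zbtb16 was not among them. Both strands were searched for the glucocorticoid response element as a palindrome, AGAACA, any 3 bases and TGTTCT. They were also searched for a looser form, GNACA, any 3 bases and TGTNC, which takes in the strict form, and for the single hexamer AGAACA, which makes up each arm of the strict form. The strict palindrome was found in 3 of 32851 windows (0.00913%), and 1 of these was an Sgk1 window, where it read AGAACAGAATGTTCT from position -189 (the annotated start is 0). The looser form was found in 156 windows (0.475%) and in that same Sgk1 window only among the members. The hexamer alone is common, at 19.0% of all windows, and stood in 4 member windows, 3 of Sgk1 and 1 of Tsc22d3. A match is a description of letters and not a binding site, and a window without one says nothing on receptor binding elsewhere. The windows shown are that of Sgk1 with the palindrome, that of Tsc22d3 with a hexamer, and those of Fkbp5 and Klf15, which held neither motif although these genes had large diet or smoke differences. Capitals mark the motif letters.
Sgk1, chr10:21993640-21993939, plus strand: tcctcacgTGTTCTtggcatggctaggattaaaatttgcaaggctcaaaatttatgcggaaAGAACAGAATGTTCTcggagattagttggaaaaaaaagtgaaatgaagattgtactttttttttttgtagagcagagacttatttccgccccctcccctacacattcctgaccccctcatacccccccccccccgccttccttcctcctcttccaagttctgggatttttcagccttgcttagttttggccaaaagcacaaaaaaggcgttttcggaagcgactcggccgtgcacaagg
Tsc22d3, chrX:140600473-140600772, minus strand: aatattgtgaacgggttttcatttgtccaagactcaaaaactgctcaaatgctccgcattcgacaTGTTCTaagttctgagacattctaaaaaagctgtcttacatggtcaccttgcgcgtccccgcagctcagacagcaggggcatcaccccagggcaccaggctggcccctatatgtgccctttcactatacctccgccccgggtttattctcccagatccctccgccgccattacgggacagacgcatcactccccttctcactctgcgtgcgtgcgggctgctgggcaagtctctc
Fkbp5, chr17:28486100-28486399, minus strand: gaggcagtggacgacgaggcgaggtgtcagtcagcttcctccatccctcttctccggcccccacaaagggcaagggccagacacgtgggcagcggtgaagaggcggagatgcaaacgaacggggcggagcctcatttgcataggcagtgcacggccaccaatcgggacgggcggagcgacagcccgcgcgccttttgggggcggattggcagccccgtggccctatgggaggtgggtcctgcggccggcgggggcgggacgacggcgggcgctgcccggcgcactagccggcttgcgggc
Klf15, chr6:90462326-90462625, plus strand: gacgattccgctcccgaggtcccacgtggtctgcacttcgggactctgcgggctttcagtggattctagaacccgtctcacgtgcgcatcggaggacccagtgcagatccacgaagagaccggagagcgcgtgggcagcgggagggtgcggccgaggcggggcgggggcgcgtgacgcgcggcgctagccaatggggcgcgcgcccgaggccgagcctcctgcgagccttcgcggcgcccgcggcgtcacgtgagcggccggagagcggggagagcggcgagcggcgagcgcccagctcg

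All values are log2 RMA signals as deposited; a difference of 1 is a doubling, and signals of different genes cannot be ranked against each other because probes bind with different strength. Of the 48 arrays, 5 stood apart (DIO-SC-3, DIO-SC-7, RW-SS-6, DIO-MS-1 and DIO-MS-6): their mean correlation with the rest lay between 0.954 and 0.979, against 0.986 to 0.991 for the others. On some of them markers of tissue other than lung were high. The score of a marker list, its mean log2 deviation from the average array, reached 6.13 for skeletal muscle (10 genes), 5.71 for squamous epithelium (7) and 4.39 for thymocytes (7) in DIO-SC. It reached 4.15 for adipocytes (8) in RW-SS and 3.97 in DIO-SC, and 3.03 for T cells (7) in DIO-SC. For interferon genes (9) it reached 4.19 in DIO-MS. The 6 lung identity genes were measured in every group, with group means from 9.21 to 9.34 for the dimmest, Foxj1, and 15.16 to 15.20 for the brightest, Scgb1a1. Scgb1a1 and Sftpc lie near the top of the array's range (highest value 15.27) and could show little change. The lung identity score was lowest, at -0.47, on DIO-SC-7, where the alveolar type 1 and type 2 scores were -0.62 and -0.63. Results are given with all arrays and, where a call differs, without the 5. In whole lung, fewer cells of a type and less RNA per cell cannot be told apart.

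Obesity and smoke met in opposite patterns among the 7 genes. Zbtb16 and Fkbp5 stood highest in obese animals breathing air and fell in obese animals under either smoke. Klf15 and Klf9 fell under mainstream smoke in both diets, and under sidestream smoke in obese animals. Sgk1 rose in all 4 comparisons of smoke with air, and Ddit4 in the 2 comparisons of regular weight animals. Tsc22d3 rose under sidestream smoke in regular weight animals and fell under mainstream smoke in obese ones.

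**Figure D1:**
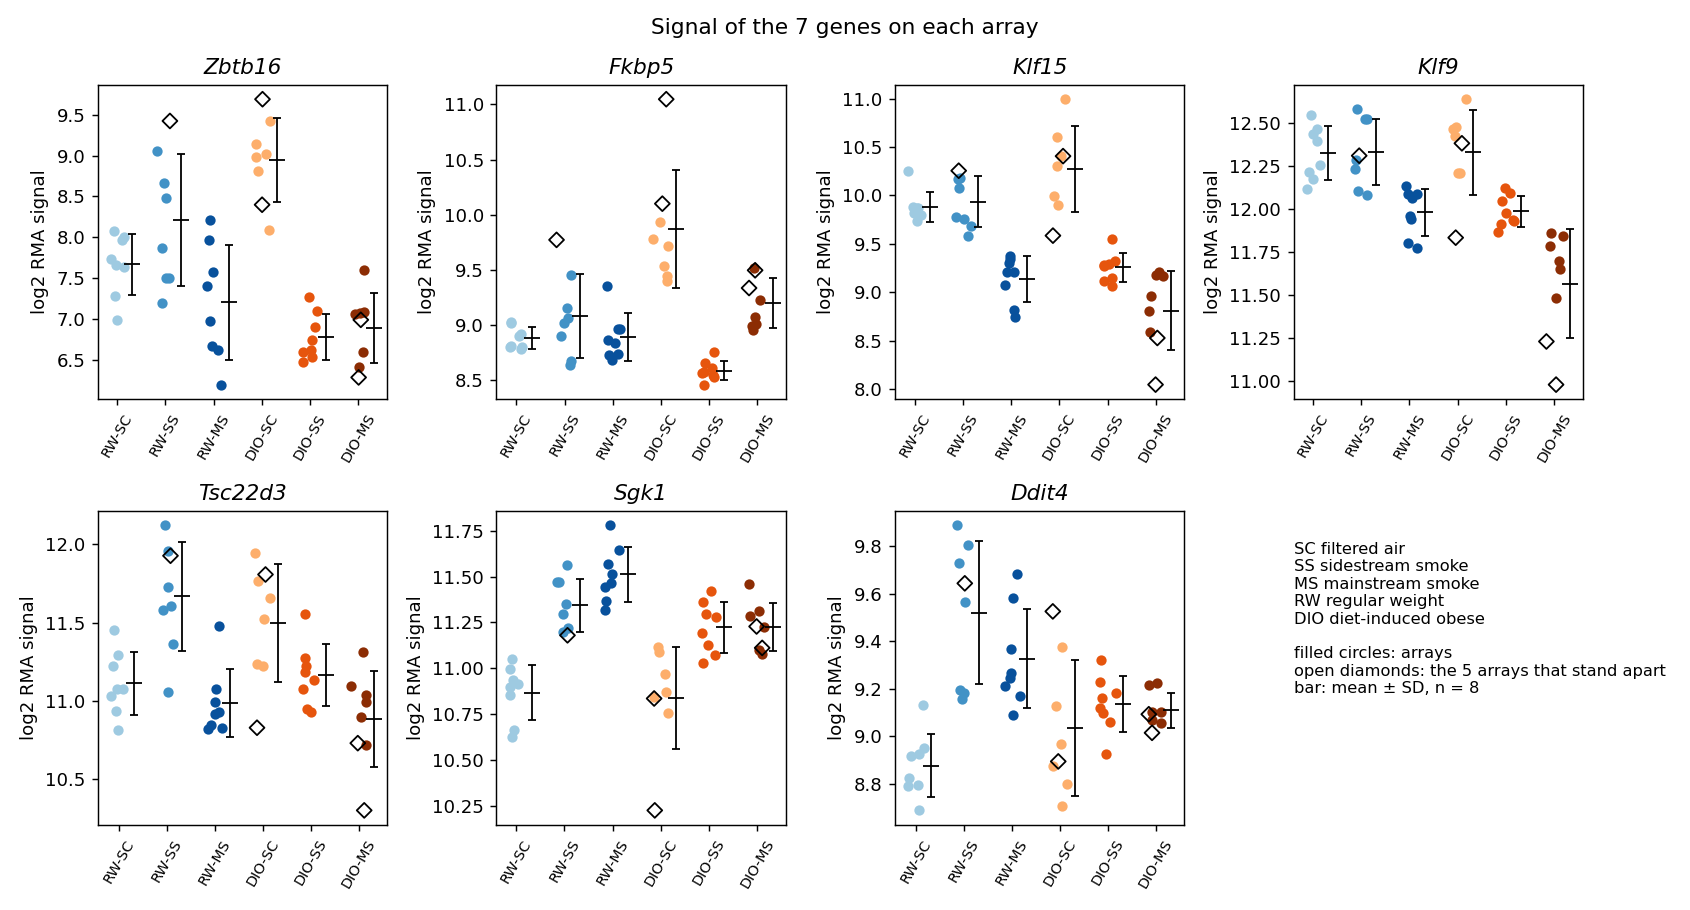
Log2 RMA signal (y axis) of each of the 7 genes on every array, by group (x axis); points are arrays, open diamonds the 5 arrays that stand apart, and bars the group mean with its SD (n = 8). In Zbtb16 the DIO-SC arrays lie between 8.10 and 9.69, and the DIO-SS arrays between 6.47 and 7.27; in Sgk1 the RW-SC arrays lie below all RW-MS arrays.

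Fkbp5 (chromosome 17, 28398753 to 28486149, GRCm38.p6) encodes an Hsp90 co-chaperone that lowers the receptor's affinity for hormone, and its induction by the receptor forms a short feedback loop. Its signal ran from 8.78 to 9.02 with a median of 8.86 in RW-SC, and from 9.40 to 11.05 with a median of 9.75 in DIO-SC. No obese animal in air was as low as any regular weight animal in air; the highest value belonged to DIO-SC-7, and the next was 10.10. The difference was 0.99 ± 0.15 (SE; 1.98-fold; limma adjusted p = 7.3e-06), or 0.75 (adjusted p = 1.3e-06) with those 5 arrays dropped. Under smoke the obese groups were lower: 8.96 to 9.52 with a median of 9.15 in DIO-MS, and 8.46 to 8.75 with a median of 8.57 in DIO-SS. DIO-SS did not overlap DIO-SC, while 2 of the 8 DIO-MS arrays reached into its range. The falls from obese air controls were -0.67 under mainstream smoke (adjusted p = 0.00057) and -1.28 under sidestream smoke (2.43-fold; adjusted p = 5e-08). Regular weight animals gave 8.68 to 9.35 (median 8.85) under mainstream and 8.64 to 9.77 (median 9.04) under sidestream smoke. Both ranges covered that of RW-SC, with differences of 0.01 (95% interval -0.29 to 0.30) and 0.20 (-0.09 to 0.50) that did not pass the test. In the order of means, DIO-SC (9.87) exceeded DIO-MS (9.20) by more than the larger SD of the pair (0.53), and RW-SC (8.88) exceeded DIO-SS (8.59) likewise (0.10); the means between, RW-SS (9.08) and RW-MS (8.89), did not part from their neighbours.

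Zbtb16 (chromosome 9, 48651797 to 48836225), a zinc finger repressor also known as PLZF that marks innate-like lymphocytes and is induced by the hormone in many tissues, had group means 2.16 apart on its brighter probe set, the widest range among the representative sets of the 7; its second set spanned 6.25 to 7.38. Its signal was 6.99 to 8.08 with a median of 7.70 in RW-SC, and 8.10 to 9.69 with a median of 9.0 in DIO-SC. The groups met without overlapping. The difference of 1.27 ± 0.27 (2.42-fold; adjusted p = 0.0014) was 1.24 without the 5 arrays. The obese smoke groups lay far lower, at 6.29 to 7.60 (median 7.03) in DIO-MS and 6.47 to 7.27 (median 6.69) in DIO-SS. Every obese smoke-exposed animal was below every obese animal in air. The falls were -2.05 (4.15-fold; adjusted p = 5.3e-08) and -2.16 (4.48-fold; adjusted p = 2.3e-07). In regular weight animals the spread was wide and the groups overlapped RW-SC: 6.20 to 8.22 (median 7.19) in RW-MS and 7.20 to 9.42 (median 8.18) in RW-SS. Their differences from air were -0.46 (95% interval -1.0 to 0.07) and 0.54 (0.01 to 1.08), neither of which passed the test (adjusted p = 0.26 and 0.31). The order of means was DIO-SC (8.94), RW-SS (8.21), RW-SC (7.67), RW-MS (7.21), DIO-MS (6.89) and DIO-SS (6.78). No neighbouring pair in that order differed by more than its larger SD, which reached 0.81 in RW-SS, although the ends lay 2.16 apart.

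Klf15 (chromosome 6, 90461043 to 90491803), a Krüppel-like factor that steers amino acid and lipid use and restrains smooth muscle growth, was 9.74 to 10.25 (median 9.85) in RW-SC and 9.59 to 10.99 (median 10.36) in DIO-SC. The air groups overlapped, and the difference of 0.39 ± 0.14 did not pass the test (adjusted p = 0.08). Without the 5 arrays it was 0.49 and did (adjusted p = 0.0092), and leaving out DIO-SC-7 alone was enough. Under mainstream smoke the signal was 8.75 to 9.37 (median 9.21) in RW-MS and 8.05 to 9.21 (median 8.88) in DIO-MS. In both diets every mainstream array was below every air array. Klf15 fell by 0.75 on the log2 scale in regular weight animals (1.68-fold; adjusted p = 0.00025) and by 1.46 in obese animals (2.76-fold; adjusted p = 4.9e-11). Sidestream smoke parted the diets, with 9.58 to 10.26 (median 9.93) in RW-SS and 9.06 to 9.55 (median 9.28) in DIO-SS. RW-SS overlapped its air group, with a difference of 0.05 (95% interval -0.24 to 0.34), while DIO-SS lay wholly below its own and below RW-SS (fall from air by 1.02; adjusted p = 6e-06). The means fell into an upper set, DIO-SC (10.27), RW-SS (9.93) and RW-SC (9.88), and a lower set, DIO-SS (9.26), RW-MS (9.13) and DIO-MS (8.81), with the one gap beyond the larger SD (0.16) between RW-SC and DIO-SS.

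Klf9 (chromosome 19, 23141226 to 23168129), a related repressor of proliferation that binds GC-rich promoters, followed Klf15 with smaller steps. The air groups overlapped, at 12.12 to 12.54 (median 12.32) in RW-SC and 11.83 to 12.64 (median 12.40) in DIO-SC, and their difference was 0.00 (95% interval -0.20 to 0.21). Under mainstream smoke the signal was 11.77 to 12.13 (median 12.01) in RW-MS and 10.98 to 11.86 (median 11.67) in DIO-MS. In RW-MS 7 of 8 arrays lay below the lowest air array, and in DIO-MS 6 of 8. The falls were by 0.34 (adjusted p = 0.014) and by 0.76 (1.70-fold; adjusted p = 6.7e-08). Sidestream smoke gave 12.08 to 12.58 (median 12.29) in RW-SS and 11.86 to 12.12 (median 11.95) in DIO-SS. RW-SS covered the range of RW-SC; DIO-SS lay within the range of DIO-SC, whose lowest array was DIO-SC-7. The obese fall by 0.34 (adjusted p = 0.026) did not pass without DIO-SC-2 or without DIO-SS-1 (highest adjusted p = 0.066), and was 0.42 (adjusted p = 0.00047) with those 5 arrays dropped. Gaps beyond the larger SD separated RW-SC (12.32) from DIO-SS (11.98), and RW-MS (11.98) from DIO-MS (11.56).

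Tsc22d3 (chromosome X, 140539528 to 140600522) encodes GILZ, which binds and restrains NF-kB and AP-1. Its signal was 10.81 to 11.45 (median 11.08) in RW-SC and 10.83 to 11.95 (median 11.59) in DIO-SC. These overlapped, with a difference of 0.39 ± 0.14 (adjusted p = 0.071) that passed without the 5 arrays (0.45; adjusted p = 0.019), without DIO-SC-7 alone and without RW-SC-8 alone. In regular weight animals it was 11.06 to 12.12 (median 11.67) under sidestream smoke, with 6 of 8 arrays above the highest air array. The rise of 0.56 (1.47-fold; adjusted p = 0.019) missed the threshold without RW-SS-6 (adjusted p = 0.054), one of the 5, and was 0.52 (adjusted p = 0.0086) without all 5. RW-MS, at 10.82 to 11.48 (median 10.92), overlapped air (difference -0.13; 95% interval -0.40 to 0.15). Among obese animals the signal was 10.30 to 11.31 (median 10.94) in DIO-MS and 10.93 to 11.56 (median 11.16) in DIO-SS. Only 3 DIO-MS arrays and no DIO-SS array lay below the lowest air array. That array was DIO-SC-7 (10.83), one of the 5, and the next DIO-SC array stood at 11.22. The mainstream fall by 0.61 (adjusted p = 0.00079) passed the test. The sidestream difference of -0.33 (adjusted p = 0.13) did not, except without DIO-SC-7 alone and, at -0.39 (adjusted p = 0.045), with the 5 arrays left out. The means ran from 11.67 in RW-SS to 10.89 in DIO-MS with no neighbouring gap beyond the larger SD.

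Sgk1 (chromosome 10, 21882184 to 21999903), a kinase that keeps epithelial sodium channels at the cell surface, had the smallest spread of the 7 within groups (pooled SD 0.17). It was 10.62 to 11.05 (median 10.91) in RW-SC and 10.22 to 11.12 (median 10.86) in DIO-SC, groups that overlapped (difference -0.03; 95% interval -0.20 to 0.14). Regular weight animals gave 11.32 to 11.78 (median 11.49) under mainstream and 11.18 to 11.56 (median 11.32) under sidestream smoke. All 16 of these arrays were above all 8 air arrays. The rises were 0.65 ± 0.09 (1.56-fold; adjusted p = 2e-07) and 0.48 (1.39-fold; adjusted p = 0.00053). Obese animals gave 11.08 to 11.46 (median 11.23) in DIO-MS and 11.03 to 11.42 (median 11.24) in DIO-SS. Here 5 and 6 of 8 arrays exceeded the highest air array, and the rises of 0.39 (adjusted p = 0.00063) and 0.38 (adjusted p = 0.0031) were 0.30 and 0.28 without the 5 arrays. In the order of means RW-MS (11.51) parted from RW-SS (11.34), and DIO-SS (11.22) from RW-SC (10.87), by more than the larger SD; RW-SS, DIO-MS (11.23) and DIO-SS did not part.

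Ddit4 (chromosome 10, 59949675 to 59951770) encodes REDD1, an inhibitor of the growth kinase mTORC1 that hypoxia and DNA damage also induce. The signal was 8.69 to 9.13 (median 8.87) in RW-SC, 9.09 to 9.68 (median 9.26) in RW-MS and 9.16 to 9.89 (median 9.60) in RW-SS. Sidestream arrays lay wholly above the air arrays, and 7 of 8 mainstream arrays did. The rises were 0.45 ± 0.10 under mainstream (1.37-fold; adjusted p = 0.0014) and 0.64 under sidestream smoke (1.56-fold; adjusted p = 6.5e-05). In obese animals the ranges were 8.71 to 9.53 (median 8.93) in air, 9.01 to 9.23 (median 9.10) under mainstream and 8.92 to 9.32 (median 9.14) under sidestream smoke. Both smoke groups lay inside the range of air, with differences of 0.08 (95% interval -0.13 to 0.28) and 0.10 (-0.10 to 0.31). Means ran from 9.52 in RW-SS to 8.88 in RW-SC with no neighbouring gap beyond the larger SD.

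Obese against regular weight animals in air: 2 of the 7 genes were called, both higher, where 8.28% of all genes were called (2.29% higher). The median difference of the 7 was 0.39 against -0.03 over all genes, and the same 2 genes, Zbtb16 and Fkbp5, had groups that did not overlap, as did 0.307% of genes in that direction. Without the 5 arrays 4 were called higher, Klf15 and Tsc22d3 in addition, at a background of 9.55%. Smooth muscle markers moved in the same comparison: 6 of 7 were higher, and their score ran from 0.03 to 0.87 in DIO-SC against -0.36 to 0.34 in RW-SC. B cell markers were lower for 6 of 7, with scores of -0.72 to -0.02 against 0.22 to 0.78. Also called were skeletal muscle markers (4 of 10 higher), alveolar type 2 markers (3 of 7 lower), alveolar macrophage markers (2 of 8 lower), and 1 marker each of adipocytes (of 8, higher), squamous epithelium (of 7, higher) and T cells (of 7, lower). In DIO-SC the skeletal muscle score had a median of 0.31 and a highest value of 6.13. For squamous epithelium these were -0.04 and 5.71, and for adipocytes 0.43 and 3.97. The DIO-SC means of these 3 lists thus rest in part on single arrays. The part of these cell types in the 7 genes was not tested.

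Mainstream smoke against air: 4 of the 7 were called in regular weight animals (14.7% of all genes), with Sgk1 and Ddit4 higher (6.61% of all genes) and Klf15 and Klf9 lower (8.07%), and a median of -0.13 against -0.03 over all genes. Sgk1 lay wholly above its air group, as did 2.78% of genes, and Klf15 wholly below, as did 2% of genes. In obese animals 6 were called (21.4%), Sgk1 higher (11.7% of all genes) and 5 lower, with a median of -0.67 against -0.02. The 5 lower were Zbtb16, Fkbp5, Klf15, Klf9 and Tsc22d3, and lower calls made up 9.76% of all genes. Of these Zbtb16 and Klf15 did not overlap their air group, as did 0.573% of genes in that direction. The calls were the same 6 without the 5 arrays, with values from -1.94 (Zbtb16) to 0.30 (Sgk1). Smooth muscle markers were lower for 7 of 7 in obese animals under mainstream smoke, with scores of -1.12 to -0.03, and limma called none of 7 in regular weight animals (none at an unadjusted p below 0.05 either). Interferon genes were higher for 5 of 9 in obese animals, with scores of -0.12 to 4.19 against -0.83 to 0.08 in air. In regular weight animals 1 of 9 was higher, with scores of -0.47 to 2.18. The median scores of the mainstream groups were close, at 0.03 in DIO-MS and 0.05 in RW-MS, against -0.48 in DIO-SC and -0.36 in RW-SC. In obese animals alveolar macrophage markers were called for 6 of 8 (3 in each direction), type 2 markers for 4 of 7 (higher), skeletal muscle for 4 of 10 (lower), neutrophil for 3 of 7 (higher), adipocyte for 3 of 8 (lower), type 1 for 3 of 7 (2 lower), squamous for 2 of 7 (lower), and B cell and endothelial for 1 each. The skeletal muscle, adipocyte and squamous falls are measured from the DIO-SC arrays. Their highest scores there were 6.13, 3.97 and 5.71, against medians of 0.31, 0.43 and -0.04. In regular weight animals alveolar macrophage markers were called for 6 of 8 (3 in each direction), B cell for 4 of 7, endothelial for 3 of 8 and type 1 for 3 of 7 (all lower), type 2 for 3 of 7 (2 lower) and neutrophil for 2 of 7 (higher). The part of these cell types in the changes of the 7 genes was not tested.

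Sidestream smoke against air: 3 of the 7 were called in regular weight animals, Sgk1, Ddit4 and Tsc22d3, all higher, where 2.17% of all genes were called and 0.694% were called higher. The median was 0.48 against -0.01 over all genes, and Sgk1 and Ddit4 did not overlap air, as did 0.161% of genes in that direction. In obese animals 5 were called (6.85% of all genes), Sgk1 higher (4.26%) and Zbtb16, Fkbp5, Klf15 and Klf9 lower (2.59%), with a median of -0.34 against 0.02. Zbtb16, Fkbp5 and Klf15 did not overlap air, as did 0.444% of genes in that direction. Here limma called no smooth muscle marker of 7 in either diet (at an unadjusted p below 0.05, 1 in obese and 0 in regular weight animals). B cell markers were lower for 5 of 7 in regular weight animals and higher for 2 of 7 in obese animals. Type 2 markers were lower for 1 of 7 in the former and higher for 2 of 7 in the latter, type 1 markers were lower for 1 of 7 in the former, and the part of these cells was not tested. Both smoke comparisons of a diet share its 8 air arrays, and the obese air arrays also enter the comparison of diets in air, so a rise there and a fall under smoke rest in part on the same animals.

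**Figure D2:**
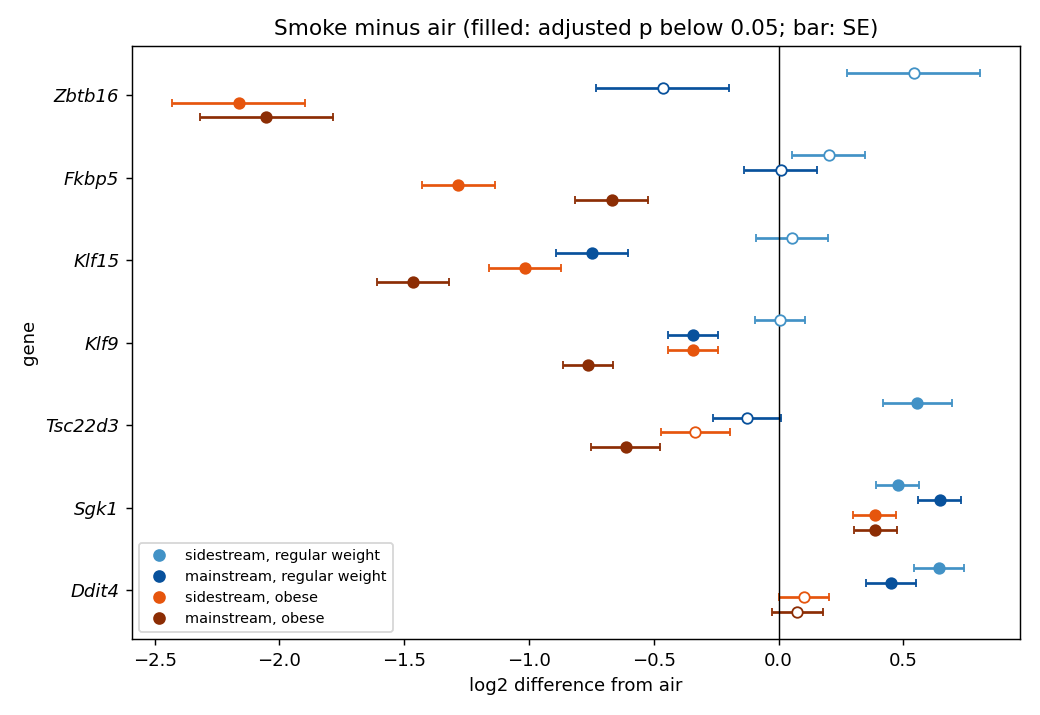
Log2 difference from air (x axis) for each gene (y axis) under both smokes in both diets; bars are the SE from limma, and filled points have an adjusted p below 0.05. Zbtb16, Fkbp5 and Klf15 lie to the left in obese animals under both smokes (down to -2.16 for Zbtb16), and Sgk1 lies to the right in all 4 comparisons (0.38 to 0.65).

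The difference between the diets' responses was tested as an interaction, the obese change minus the regular weight change. For sidestream smoke 4 of the 7 passed, all toward lower in obese animals, where 0.654% of all genes passed (0.258% toward lower): Zbtb16 at -2.70 ± 0.38 (adjusted p = 2.2e-05), Fkbp5 at -1.49 ± 0.21 (adjusted p = 2.2e-05), Klf15 at -1.07 ± 0.20 (adjusted p = 0.0033) and Tsc22d3 at -0.89 ± 0.20 (adjusted p = 0.012). Klf9 (-0.35; adjusted p = 0.29), Ddit4 (-0.54; adjusted p = 0.059) and Sgk1 (-0.09; 95% interval -0.34 to 0.15) did not. Without the 5 arrays these 4 passed, with Klf9 in addition (-0.43; adjusted p = 0.041). For mainstream smoke Zbtb16 alone passed (-1.59 ± 0.38; adjusted p = 0.029), where 0.888% of genes passed (0.299% toward lower). That call missed the threshold without DIO-SC-3 or without RW-MS-3 (highest adjusted p = 0.051), and stood at -1.47 (adjusted p = 0.039) with those 5 arrays dropped. The other 6 differences ran from -0.26 for Sgk1 to -0.72 for Klf15, all below 0, and did not pass. In limma all 7 had an unadjusted p below 0.05. Cell type markers passed these interactions too: B cell markers for 5 of 7 (median 0.81) and type 2 markers for 1 of 7 with sidestream smoke, all toward higher, and with mainstream smoke smooth muscle markers for 4 of 7 (median -0.66), toward lower, and B cell and type 2 markers for 1 of 7 each, toward higher. Their part in the differences of the 7 genes was not tested.

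Comparing the diets under the same smoke uses no air array for the difference itself. Its SE and p do draw on the air arrays, because the spread was estimated over all 6 groups. Under sidestream smoke 3 of the 7 were called lower in obese animals, where 0.976% of genes were called (0.323% lower): Zbtb16 (-1.43; adjusted p = 0.0021; its second probe set, at -0.39, was not called), Klf15 (-0.68; adjusted p = 0.0098) and Ddit4 (-0.38; adjusted p = 0.046). Klf15 alone did not overlap between the diets, as did 0.29% of genes in that direction. The Ddit4 call was lost in 12 of the 16 fits that left out 1 array. Without the 5 arrays 6 of the 7 were called lower (2.99% of genes called), Fkbp5, Klf9 and Tsc22d3 in addition. Sgk1 was not (-0.14, limma adjusted p = 0.36). Fkbp5 went from -0.50 ± 0.15 (SE) to -0.40 ± 0.10, Klf9 from -0.35 ± 0.10 to -0.35 ± 0.08 and Tsc22d3 from -0.50 ± 0.14 to -0.47 ± 0.12. Their SE fell, while their differences shrank or changed little. Under mainstream smoke 1 gene was called, Klf9 at -0.41 (adjusted p = 0.023), where 1.21% of genes were called (0.597% lower). It was not called without the 5 arrays (-0.26; adjusted p = 0.095), nor without DIO-MS-1, DIO-MS-6, RW-MS-1 or RW-MS-8 alone. Zbtb16 and Fkbp5, which were higher with obesity in air, differed by -0.31 and 0.31 under mainstream smoke and did not pass.

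**Figure D3:**
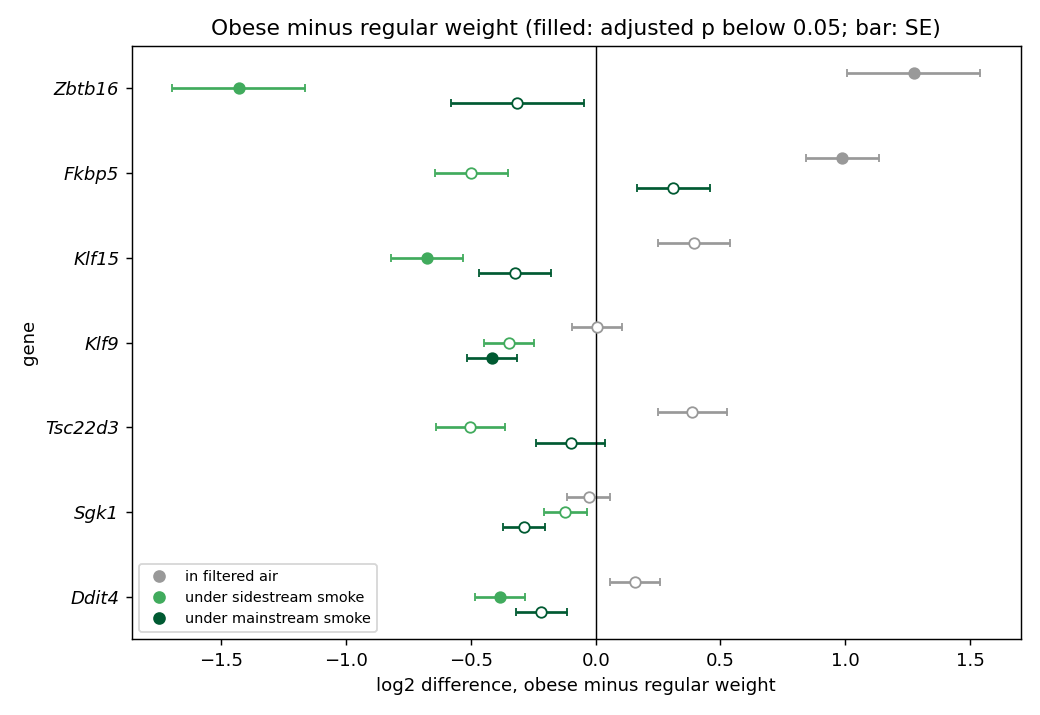
Log2 difference of obese from regular weight animals (x axis) for each gene (y axis) in air and under each smoke; bars are the SE from limma, and filled points have an adjusted p below 0.05. Zbtb16 stands at 1.27 in air and at -1.43 under sidestream smoke; Sgk1 stays between -0.29 and -0.03.

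Set directly against each other, the smokes differed in regular weight animals for 4 of the 7 genes (9.77% of all genes), all lower under mainstream smoke (3.72%): Zbtb16 (-1.01; adjusted p = 0.0092; its second probe set, at -0.33, was not called), Klf15 (-0.80; adjusted p = 8.7e-05), Klf9 (-0.35; adjusted p = 0.017) and Tsc22d3 (-0.68; adjusted p = 0.00047). Klf15 alone did not overlap, as did 1% of genes in that direction. Sgk1, Ddit4 and Fkbp5 were not called. In obese animals 3 were called (16.8% of all genes; 8.83% higher and 8% lower). Fkbp5 was higher under mainstream smoke by 0.62 (adjusted p = 0.0021), and its 8 mainstream arrays lay above all 8 sidestream arrays, as for 3.82% of genes. Klf9 was lower by 0.42 (adjusted p = 0.0021), again without overlap (1.98% of genes), and Klf15 by 0.45 (adjusted p = 0.027). The Klf15 call was lost without the 5 arrays (-0.27; adjusted p = 0.18), and without DIO-MS-1, DIO-MS-6 or DIO-SS-6 alone. Zbtb16 was not called, with a difference of 0.11 (95% interval -0.43 to 0.65). In the obese comparison smooth muscle markers were lower under mainstream smoke for 6 of 7 and interferon genes higher for 4 of 9. Alveolar macrophage markers were called there for 6 of 8 (4 lower), type 1 for 3 of 7, type 2 and neutrophil for 2 of 7 each, endothelial for 2 of 8, B cell for 1 of 7 and adipocyte for 1 of 8. In regular weight animals alveolar macrophage markers were called for 6 of 8 (3 in each direction) and type 1 and neutrophil for 2 of 7 each. Also called there was 1 marker each of type 2, endothelial, B cell and adipocyte markers and of interferon genes. The part of these cell types was not tested.

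Of the 7 genes 4 have several probe sets, each tested in a fit over all 22626 probe sets that are not controls. The pair for Fkbp5 gave nearly the same values, for example -1.28 and -1.27 for obese animals under sidestream smoke. The pair for Zbtb16 shared direction in the obese and air comparisons but not size: the dimmer set gave 0.72 where the brighter gave 1.27 for obesity in air, -1.13 against -2.05 for mainstream and -1.12 against -2.16 for sidestream smoke in obese animals. The dimmer set stood at -0.01 against 0.54 for sidestream smoke in regular weight animals, where neither was called. Where the brighter set was called between diets under sidestream smoke and between smokes in regular weight animals, the dimmer was not (adjusted p = 0.19 and 0.12). The fold changes of Zbtb16 therefore depend on the probe set chosen, here the one with the higher mean. Klf9 has 7 probe sets, and 6 of them were called lower in obese animals under mainstream smoke, from -0.65 to -0.90; the exception (-0.23) was the dimmest, with a mean signal of 4.98 and a correlation of 0.27 with the representative set. For sidestream smoke in obese animals 2 of the 7 Klf9 sets were called. All 3 Tsc22d3 sets were called lower in obese animals under mainstream smoke, and 2 of 3 higher in regular weight animals under sidestream smoke, the third at 0.27 (adjusted p = 0.12).

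**Figure D4:**
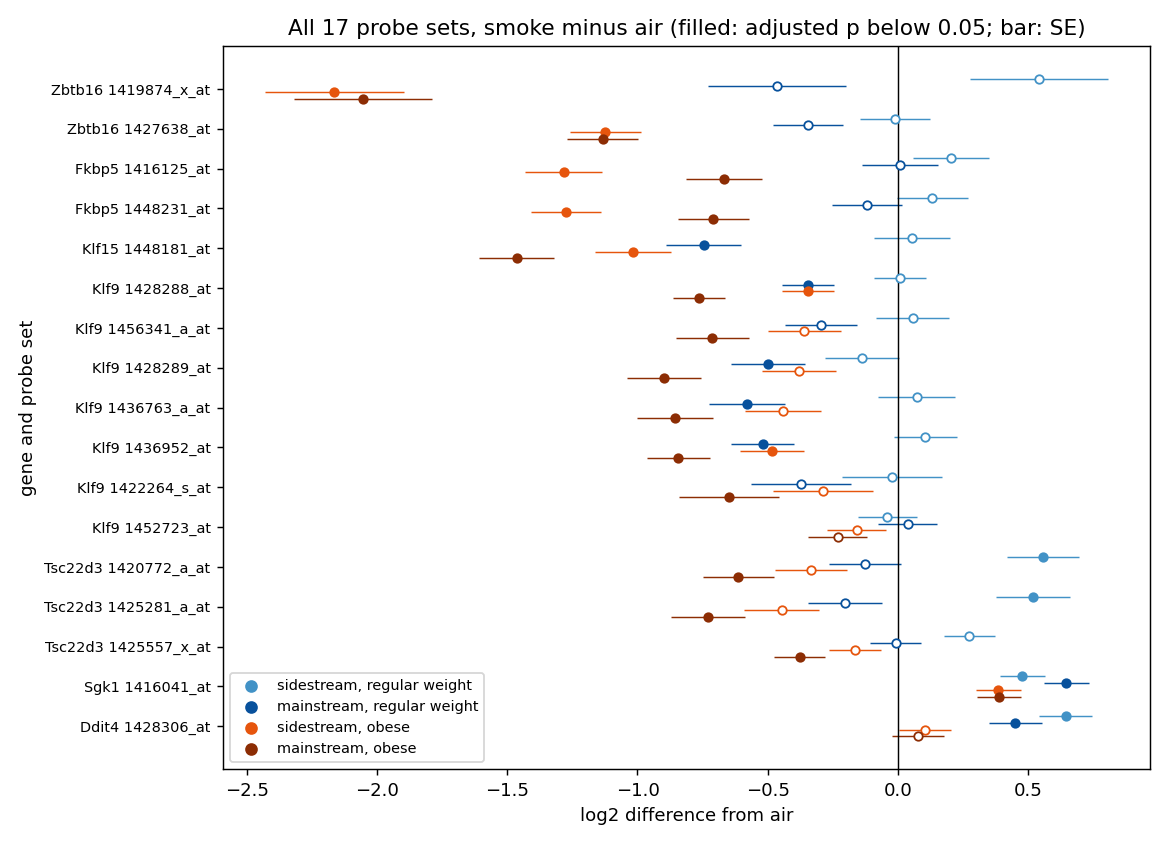
Log2 difference from air (x axis) for each of the 17 probe sets, labelled by gene and probe set (y axis), under both smokes in both diets; bars are the SE from limma, and filled points have an adjusted p below 0.05. The Zbtb16 sets differ in size (-2.16 and -1.12 in obese animals under sidestream smoke), and the dimmest Klf9 set stays near 0.

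Within groups, after each group's mean was removed, the genes varied together to different degrees over the 48 arrays. Of 21 pairs, 3 had an adjusted p below 0.05 for Pearson's r in a two-sided permutation test (100000 permutations within groups), and these 3 joined Klf15, Klf9 and Tsc22d3; by Spearman's rho 5 pairs did. Klf15 and Klf9 had r = 0.86 and rho = 0.82 (permutation p = 1e-05 for each, the smallest these permutations can give; adjusted p = 0.000105 and 0.00021). Their r was 0.82 without the 2 arrays farthest from the median and 0.80 without the 5 arrays. Klf9 and Tsc22d3 had r = 0.71 and rho = 0.66 (permutation p = 1e-05 and 3e-05; adjusted p = 0.000105 and 0.000315), with r = 0.60 and 0.61 without those arrays. Klf15 and Tsc22d3 had r = 0.69 and rho = 0.62 (permutation p = 3e-05 and 7e-05; adjusted p = 0.00021 and 0.00049), with r = 0.65 and 0.54. Zbtb16 and Fkbp5, the pair that was higher with obesity in air, had r = 0.33 and rho = 0.40 (permutation p = 0.052 and 0.012; adjusted p = 0.156 and 0.0496), and r was 0.27 without the 2 farthest arrays and 0.51 without the 5 arrays. Klf15 and Ddit4 had r = 0.25 and rho = 0.43 (permutation p = 0.129 and 0.00459; adjusted p = 0.225 and 0.0241), with r = 0.24 and 0.50. These last 2 pairs pass by rank and not by Pearson's r. How many of all gene pairs correlate as strongly was not computed. Genes outside the set reached similar values within groups: with Klf9, Gata2 had r = 0.80 and Sult1a1 0.82, and with Klf15, Lims2 had 0.76. Genes on the same array share its dissection, hybridisation and normalization, so such a correlation is shared variation of whatever source.

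The genes outside the set with the most similar signal over all 48 arrays were, for Klf15, Lims2 (r = 0.89), Rapgef3 (0.86) and Igfbp6 (0.85), and for Klf9, Gata2 (0.87), Ppm1a (0.86) and Sult1a1 (0.86). Tsc22d3 was closest to Efnb1 (0.82), Gata2 (0.76) and Errfi1 (0.75), and Sgk1 to Akr1a1 (0.79), Acsl4 (0.78) and Iah1 (0.78). Zbtb16 was closest to Mknk2 (0.75), Map3k6 (0.73) and Foxo3 (0.69). Ddit4 had the least similar company, with Adh5, Rasd1 and Arntl each at 0.64. Fkbp5 was closest to Prelid3b (0.77), Hspa9 (0.76) and Hspd1 (0.75), but without the 5 arrays these fell to 0.49, 0.49 and 0.59, whereas Lims2 kept 0.88 with Klf15 and Gata2 0.83 with Klf9. With group means removed the values were 0.76 for Lims2, 0.80 for Gata2 with Klf9 and 0.78 for Prelid3b, and lower for the 3 nearest to Zbtb16 (0.33, 0.42 and 0.45) and to Ddit4 (0.47, 0.50 and 0.33), whose similarity lies more in differences between groups. These values are over all 48 arrays and were not computed without the 5, among them DIO-SC-7 with the highest Fkbp5 signal.

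The receptor's own signal moved little. Nr3c1 had group means of 11.29 to 11.51, and limma called it in none of the 11 contrasts (lowest adjusted p = 0.071, for mainstream smoke in obese animals at -0.15; 3 contrasts had an unadjusted p below 0.05). A list of 15 genes held the receptor, its chaperones, cofactors and the enzymes that make or remove active hormone. Of the 10 measured, 3 were called higher and 1 lower with obesity in air, where 8.28% of all genes were called. The higher ones were the Hsp90 chaperone machinery: Stip1 (0.71; adjusted p = 1.4e-09), Hsp90aa1 (0.56; adjusted p = 2.4e-06) and Fkbp4 (0.47; adjusted p = 7.3e-06). The lower one was H6pd (-0.23; adjusted p = 0.030), which supplies the cofactor of Hsd11b1. The same 3 were called lower in obese animals under sidestream smoke (Stip1 -0.53, Fkbp4 -0.43, Hsp90aa1 -0.31). That comparison shares the obese air arrays, and 6.85% of all genes were called in it. Under either smoke the obese means stayed above the regular weight means. For Stip1 they were 9.61 against 9.18 (mainstream) and 9.33 against 9.04 (sidestream), and for Hsp90aa1 12.85 against 12.44 and 12.75 against 12.37. For Fkbp4 they were 10.46 against 10.28 and 10.51 against 10.33, with 10.94 in obese animals in air. Under mainstream smoke 4 of the 10 were called in obese animals (21.4% of all genes). Hsd11b1, which regenerates active hormone inside cells, was lower under mainstream smoke by 0.34 in regular weight (adjusted p = 0.004) and 0.37 in obese animals (adjusted p = 0.00075). Hsd11b2, which inactivates the hormone, was higher there by 0.51 (adjusted p = 0.044) and 1.07 (adjusted p = 7.6e-06); the obese value was 0.60 without the 5 arrays.

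Other known targets moved in both directions. Of 28 measured genes of a list of 30, 6 were called higher and 1 lower with obesity in air (median 0.14). The share called over all genes was 8.28%. The leading 4 were Pdk4, which blocks glucose oxidation (1.68; adjusted p = 0.0064), the lipid droplet protein Plin4 (1.19; adjusted p = 0.019), the lipase inhibitor Angptl4 (0.90; adjusted p = 0.0073) and Map3k6 (0.70; adjusted p = 0.0019). Pdk4 and Plin4 were 0.97 and 0.81 without the 5 arrays, among which adipocyte and muscle markers were high; the part of those tissues was not tested. In obese animals 5 were higher and 10 lower under mainstream smoke (median -0.14), where 21.4% of all genes were called. They were led by Pdk4 (-1.62), Plin4 (-1.15), Map3k6 (-0.91) and the decoy receptor Il1r2 (0.84). Without the 5 arrays Pdk4 was -0.83 and Plin4, at -0.69, was not called (adjusted p = 0.063). Under sidestream smoke 2 were higher and 4 lower, where 6.85% of all genes were called. Map3k6 (-1.05), the clock gene Per1 (-1.02), the lipid phosphatase Lpin1 (-0.56) and the G protein regulator Rgs2 (0.37) stood in front.

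In regular weight animals 6 of the 28 were higher and 4 lower under mainstream smoke, where 14.7% of all genes were called. They were led by Per1 (-0.75), Il1r2 (0.62), the cell cycle inhibitor Cdkn1a (0.60) and the metallothionein Mt2 (0.56). Under sidestream smoke 1 was higher, Rasd1 (0.60, limma adjusted p = 0.029), and 1 lower, Rgs2 (-0.44, adjusted p = 0.008). Over all genes 2.17% were called there. In the interaction for sidestream smoke Map3k6 was lower in obese animals (-1.03; adjusted p = 0.0068), as were 4 of the 7 genes described here, while Rgs2 was higher (0.81; adjusted p = 0.00076). Map3k6 is also among the genes most similar to Zbtb16.

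**Figure D5:**
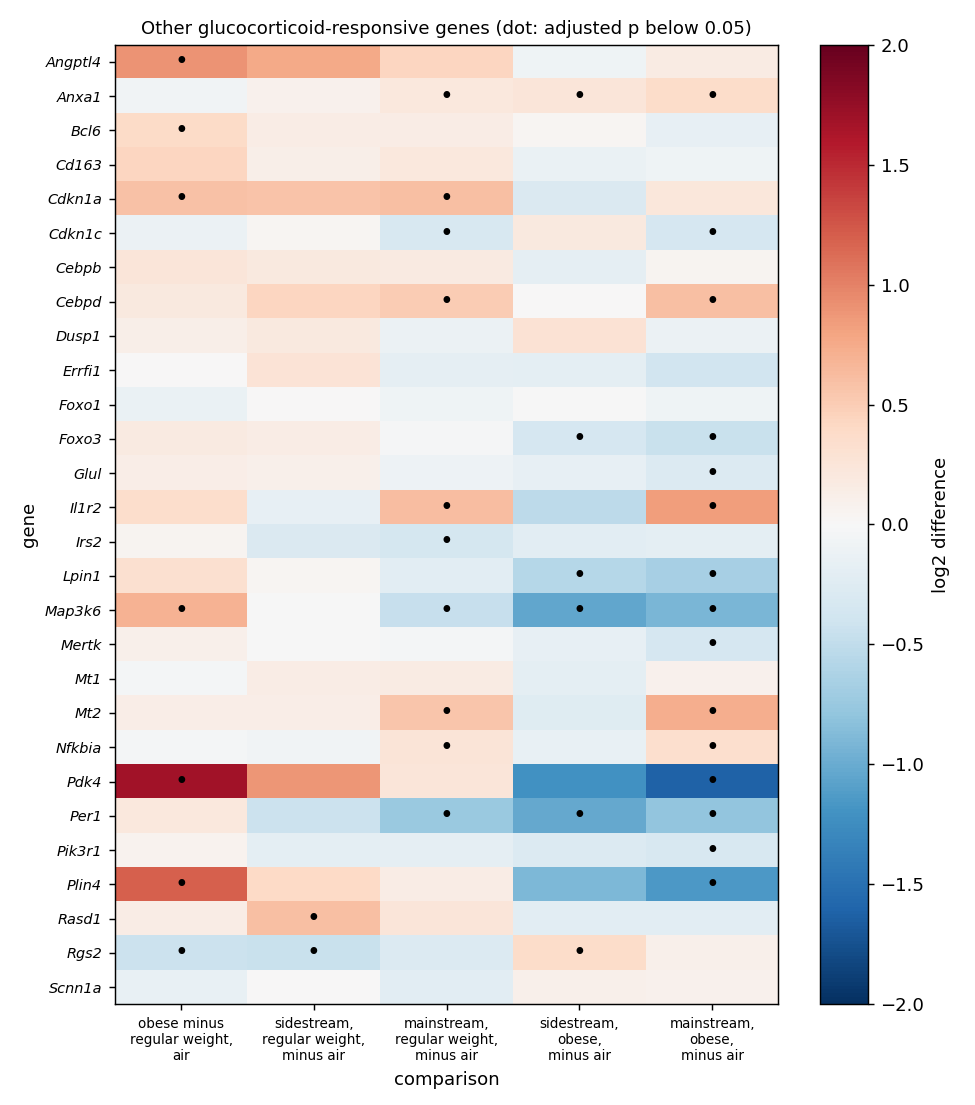
Log2 difference (colour, cut at -2 and 2) of the 28 other glucocorticoid-responsive genes (y axis) in 5 comparisons (x axis); a dot marks a limma adjusted p below 0.05. Pdk4 and Plin4 are high with obesity in air and low in obese animals under mainstream smoke; Mt2 and Il1r2 are high under mainstream smoke in both diets.

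Several of the 7 genes also follow the time of day, and clock genes moved with smoke. Dbp, a clock output gene, differed from air by -1.41 (mainstream) and -2.62 (sidestream) in regular weight animals, and by -0.46 and -1.32 in obese animals, all called. Nr1d1, of the same phase, had means of 10.22 in RW-SC, 8.19 in RW-MS and 7.60 in RW-SS. Its obese means were 10.30 in DIO-SC, 9.16 in DIO-MS and 8.68 in DIO-SS. For Per1 the means in the same order were 9.05, 8.31 and 8.61, and 9.26, 8.47 and 8.24. Of 9 measured genes that peak with Dbp, 7 and 6 were lower in regular weight animals under mainstream and sidestream smoke, and 6 and 7 in obese animals. Over all genes 14.7%, 2.17%, 21.4% and 6.85% were called in these comparisons, in that order, and 8.28% with obesity in air. Of 5 measured genes that peak with Arntl, in the opposite phase, 4 were higher in regular weight animals under each smoke, and 2 in obese animals under sidestream smoke; under mainstream smoke limma called 0 of 5 there (0 at an unadjusted p below 0.05). With obesity in air limma called none of the 9 (1 at an unadjusted p below 0.05) and 1 of the 5, Nfil3 (0.45; adjusted p = 0.026; 3 of the 5 at an unadjusted p below 0.05). In the interactions 4 of the 9 passed for sidestream and 2 for mainstream smoke, all toward higher in obese animals. Over all genes 0.654% and 0.888% passed. The hour at which tissue was taken is not stated in the labels, and the part of the clock in the diet and smoke differences of the 7 genes was not tested.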

How the data were processed

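Total RNA from 48 lungs was labelled and hybridised by the authors, 1 array per animal. The authors deposited log2 signals per probe set made with RMA (background correction, quantile normalization and summary), per the submitters' processing notes; the labels state neither its version nor which arrays were processed jointly. Array medians lay between 7.82 and 7.94. After 64 control probe sets were set aside, 20380 of 22690 probe sets had 1 gene symbol in GEO's platform annotation; 20351 matched a RefSeq gene, and the probe set with the highest mean stood for each of 12393 genes. Groups were compared with limma 3.58.1 in R 4.3.3 (lmFit on 6 group means over all 48 arrays, then eBayes), with Benjamini-Hochberg adjustment over all genes in each of 11 contrasts and a threshold of 0.05. On simulated data of 12393 genes for obesity in air, 97 of 100 genes changed by 1 and 83 of 100 changed by 0.5 (log2) were recovered. There 9 unchanged genes were also called. The simulation gave a gene the same SD in every group and held no arrays that stand apart. It therefore does not give the recovery on the real arrays. Alternatives were the 5 arrays left out, array weights, median centring, a trended and robust fit, all probe sets, the dimmest genes left out, only the compared groups, the replicate number as a block, and each array left out. Replicate numbers did not pair arrays: the residual correlations of same-numbered arrays averaged 0.02, with 42 of 120 above 0.1. The number of arrays limits the precision. All 7 genes are described. From the list of other glucocorticoid targets the 4 called genes with the greatest difference are named for smoke against air and for obesity in air. From the receptor and clock lists some genes are named, with Nr3c1, Hsd11b1, Per1 and Dbp among them. The genes and lists were chosen with earlier results of these data known.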

Additional observations from a re-analysis of the deposited data

Results flagged for a closer look

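Within a group, 5 single arrays stood far from the nearest of the others for a gene, out of 42 groups checked (7 genes in 6 groups); chance gives this in about 1 of 20 groups. For Fkbp5 they were RW-MS-7 at 9.35, with the next array at 8.96, and DIO-SC-7 at 11.05, with the next at 10.10. For Klf15 it was RW-SC-1 at 10.25, with the next at 9.88, for Tsc22d3 RW-MS-6 at 11.48, with the next at 11.08, and for Sgk1 DIO-SC-7 at 10.22, with the next at 10.76. DIO-SC-7 accounts for 2 of these and is one of the 5 arrays that stand apart. The response to smoke differed between the diets, by the interaction test in limma, for Zbtb16 under mainstream (-1.59; adjusted p = 0.029) and sidestream smoke (-2.70; adjusted p = 2.2e-05). Under sidestream smoke it also differed for Fkbp5 (-1.49; adjusted p = 2.2e-05), Klf15 (-1.07; adjusted p = 0.0033) and Tsc22d3 (-0.89; adjusted p = 0.012).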

How the results depend on the processing

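Over 8 alternative settings, 585 of 616 differences of the 7 genes kept direction and side of the threshold, 7 lost the call, 18 gained it, 6 uncalled ones changed sign, and none that was called in either fit did. Leaving out 1 array at a time, 1383 of 1456 held, 24 lost and 18 gained the call, 31 uncalled ones changed sign and no called one did. The count called for obesity in air, 2, became 4 without the 5 arrays. For obese against regular weight under sidestream smoke the count of 3 became 6 without the 5 arrays, 6 with array weights and 5 with only the groups compared; under mainstream smoke the count of 1 became 0 without the 5 arrays and 0 with only the groups compared. For the diet difference in the mainstream response the count of 1 became 2 with array weights. With 1 array left out the counts ranged from 2 to 4 (obesity in air), 0 to 1 and 2 to 4 (diets under mainstream and sidestream smoke), 0 to 3 and 4 to 5 (diet difference for mainstream and sidestream), 2 to 3 and 4 to 6 (sidestream in regular weight and obese animals), and 2 to 3 (mainstream against sidestream, obese); the counts for the other 3 comparisons stayed at 4, 6 and 4. The cause of these shifts was not tested. With the replicate number as a block, a pairing the data did not show, the count for the diets under sidestream smoke was 2 in place of 3 (Ddit4 at adjusted p = 0.067) and the other 10 counts did not move.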
